A study of Mus musculus with 374 samples.

Results

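The subunits and regulators of the proteasome were followed across 5 sorted mouse blood cell populations, with attention to the exchange of its catalytic subunits. Members were all genes of the count table whose symbol starts with Psma, Psmb, Psmc, Psmd or Psme, with pseudogenes left out. The rule found 41 of the 19829 mouse genes in the table, and 4 further annotated symbols that match it are not analysed here. Together the 41 members held 8358 of 2241250 unique molecular identifiers (UMIs, random tags that mark single captured transcripts), or 0.373%. A total of 36 members reached 50 UMIs over all cells, the minimum set for comparing populations, and 6317 of all genes did so.

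All cells came from 1 C57BL/6 female mouse aged 10 to 13 weeks, with no treatment or genetic change given in the labels. The populations were 44 B lymphocytes (B cells; B220+, low forward scatter area, FSC-A), 96 granulocytes (Mac1+ Gr1+), 96 erythroblasts (Ter119+ CD44+, mid to high FSC-A) and 95 progenitor/stem cells (Lin- Kit+ Sca1+) from the bone marrow, and 43 T lymphocytes (T cells; CD3+, low FSC-A) from the thymus. Each cell was sorted into a well of 1 plate and measured by CEL-seq2, which primes on the poly(A) tail and counts UMIs at the 3′ end. Since each population came from 1 mouse, it was 1 sample, and the values below carry 95% exact intervals that cover counting error only, with no test.

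The libraries held 135808 UMIs on mouse genes in the B cells, 200396 in the T cells, 403506 in the granulocytes, 666728 in the erythroblasts and 834812 in the progenitor/stem cells. The marker list of each population was highest in its own wells, and 367 of the 374 wells were most like the sum of their own population over 3872 genes. The populations filled separate rows of the plate, so row and population cannot be told apart. Haemoglobin transcripts made up 23.5% of the erythroblast UMIs and between 1.21% and 2.83% in the other populations, and S100a8 and S100a9 stood at 0.0879% in the erythroblasts, which was 0.903% of the granulocyte level. How far UMIs carried between wells enter low values was not tested. The macrophage markers summed to at most 12 CPM (the share of UMIs on mouse genes, counted per 1000000 UMIs, and the unit of all levels below), in the granulocytes.

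The proteasome degrades proteins that carry ubiquitin chains. Its 20S core is a barrel of alpha and beta rings, in which 3 beta subunits, Psmb5, Psmb6 and Psmb7, cut the substrate. The 19S particle binds ubiquitinated proteins and unfolds them with a ring of ATPases, and the core with 19S particles forms the 26S proteasome. In immune cells and under interferon, Psmb8, Psmb9 and Psmb10 take the places of Psmb5, Psmb6 and Psmb7 and form the immunoproteasome, whose peptides suit loading onto MHC class I molecules. Other caps open the core without ubiquitin: the 11S activator of Psme1 and Psme2, the nuclear activator Psme3 and the large activator Psme4.

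The upstream sequences of 35 members were found in the RefSeq table of GRCm38.p6, and the 250 bases before each start site were searched on both strands for 4 short motifs. The ETS element CCGGAAG, a site type bound by ETS factors, was in 11 of the 35 members (31.4%) against 7.83% of all 27025 genes with such a window. It was in 8 of the 23 subunits shared by all 26S proteasomes and in 0 of the 6 genes of the immunoproteasome and the 11S activator. The STAT element TTCNNNGAA was in Psmb8 alone (2.86%, against 8.13% of all genes), and the antioxidant response element TGACNNNGC, a site type of Nrf1 and Nrf2, was in Psmb5, Psmb6, Psmc6 and Psmd12 (11.4%, against 11.5%). The motif GAAANNGAA of interferon regulatory factors was in 2 members (5.71%, against 8.18%), and in none of the immunoproteasome or 11S genes. A match is a run of letters and no measured binding, and the search covered these windows only. The windows of Psmb8, Psmb9 and Psme1 lay wholly inside their genes as annotated in GENCODE M21, and so did that of Psmd13 among the shared subunits. The sequence upstream of these annotated genes was not searched, so the counts do not show that the motifs are absent there.

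The following sequences are shown because the results turn on these genes: the Psmb8 element, the upstream stretches of Psmb5 and Psmb6, which Psmb8 and Psmb9 replace, and that of Psme3. They are written 5′ to 3′ on the strand of the gene with the matched motif in capitals, from GRCm38.p6, and leave out annotated exons. The Psmb8 stretch is the exception, since it lies in an exon of another Psmb8 transcript in GENCODE M21, and only 10 bases on either side of the element are given. It lies at chr17:34198088-34198116 on the plus strand, and its STAT element begins 97 bases before the RefSeq start. The Psmb5 stretch is chr14:54618023-54618245 on the minus strand, with the antioxidant response element 47 bases before the start. The Psmb6 stretch is chr11:70525107-70525356 on the plus strand, with the same element 9 bases before the start, and the Psme3 stretch is chr11:101315963-101316212 on the plus strand, with the ETS element 107 bases before the start.
Psmb8: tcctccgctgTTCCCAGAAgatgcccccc
Psmb5: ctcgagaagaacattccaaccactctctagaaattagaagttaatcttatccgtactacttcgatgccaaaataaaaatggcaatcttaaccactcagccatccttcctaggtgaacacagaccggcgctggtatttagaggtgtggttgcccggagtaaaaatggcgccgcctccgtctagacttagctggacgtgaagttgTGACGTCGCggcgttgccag
Psmb6: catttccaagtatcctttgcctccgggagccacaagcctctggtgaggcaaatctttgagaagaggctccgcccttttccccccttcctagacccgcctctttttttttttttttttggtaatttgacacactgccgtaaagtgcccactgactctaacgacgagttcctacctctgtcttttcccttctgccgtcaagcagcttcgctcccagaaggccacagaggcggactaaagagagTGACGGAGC
Psme3: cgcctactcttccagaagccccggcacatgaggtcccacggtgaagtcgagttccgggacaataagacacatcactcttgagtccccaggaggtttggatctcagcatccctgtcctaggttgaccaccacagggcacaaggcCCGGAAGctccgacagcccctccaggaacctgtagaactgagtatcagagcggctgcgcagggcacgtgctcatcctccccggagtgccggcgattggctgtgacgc

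Psmb8 and Psmb10 were the members that differed most between populations, by 31.9-fold and 29.5-fold from the lowest to the highest level with sums under 3 UMIs set to 3 UMIs, and the erythroblasts were lowest in both. Psme2b (15.2-fold), Psme2 (12.7-fold) and Psmb9 (12.2-fold) came next, and were also lowest there. Psmb8, Psmb9 and Psmb10 together held 53 of the 91 UMIs of the 6 catalytic subunits in the B cells, or 58.2% (95% exact binomial interval 47.4% to 68.5%). The share was 77.7% in the T cells (71.4% to 83.2%, 206 UMIs), 66.1% in the granulocytes (59.0% to 72.8%, 192 UMIs) and 70.1% in the progenitor/stem cells (66.6% to 73.4%, 742 UMIs). In the erythroblasts it was 11.7% (7.61% to 16.8%), from 24 of 206 UMIs, and its interval lay below those of the other populations. How well each transcript is captured is unknown, so the shares can be set beside each other between populations, and 50% carries no special meaning.

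The difference lay mostly on the immunoproteasome side. The summed level of Psmb8, Psmb9 and Psmb10 was 390 CPM in the B cells, 798 CPM in the T cells, 315 CPM in the granulocytes, 36.0 CPM in the erythroblasts and 623 CPM in the progenitor/stem cells. The T cells were thus 22.2-fold above the erythroblasts (interval 14.4 to 35.6) and the granulocytes, the lowest of the others, 8.74-fold (5.62 to 14.1). The summed level of Psmb5, Psmb6 and Psmb7 was 280 CPM, 230 CPM, 161 CPM, 273 CPM and 266 CPM in the same order. The granulocytes were lowest, with the progenitor/stem cells 1.65-fold above them (1.2 to 2.21) and the erythroblasts 1.69-fold (1.27 to 2.29), and the T cells were not separated from them (1.42-fold, 0.955 to 2.11). With CPM divided by TMM factors, or counts by scran size factors, the erythroblasts were highest in this sum (389 and 293), and the lowest were the T cells with TMM factors (183, against 215 in granulocytes) and the granulocytes with scran size factors (131). The immunoproteasome sum stayed lowest in the erythroblasts, at 51.2 and 56.5, and highest in the T cells, at 636 and 476.

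**Figure D1:**
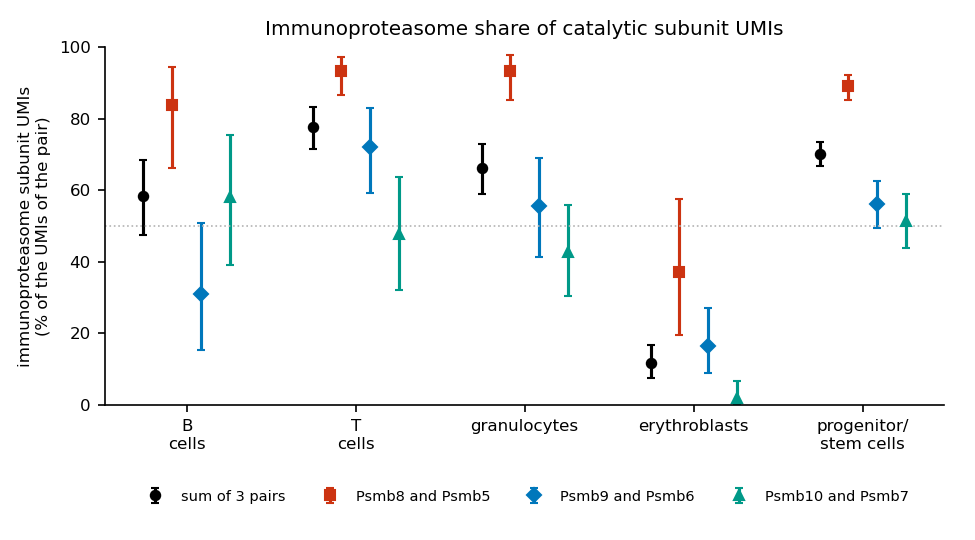
The vertical axis gives the percentage of UMIs that belonged to the immunoproteasome subunit, for the 3 pairs together (circles) and for each pair, in the 5 populations on the horizontal axis. Bars are 95% exact binomial intervals, which cover counting error only. The erythroblasts are lowest in every pair, at 37.0%, 16.4% and 1.89%, and the Psmb8 and Psmb5 pair is highest in every population.

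Psmb8 (chr17:34197721-34201454, GRCm38, plus strand), the immune counterpart of the chymotrypsin-like subunit Psmb5, was the most abundant member over the 5 populations, with a mean of 244 CPM. It was at 191 CPM in the B cells, 479 CPM in the T cells, 173 CPM in the granulocytes, 15.0 CPM in the erythroblasts and 362 CPM in the progenitor/stem cells. The T cells were 1.32-fold above the progenitor/stem cells (1.04 to 1.67), which were 1.89-fold above the B cells (1.26 to 2.94). The B cells and granulocytes could not be separated (1.10-fold, 0.675 to 1.75), and the granulocytes were 11.6-fold above the erythroblasts (5.93 to 25.2). One T cell well held 27 of the 160 immunoproteasome UMIs of its population, and the next highest well held 9. Without it Psmb8 was at 438 CPM in the T cells, and the interval of their ratio to the progenitor/stem cells included 1 (1.21-fold, 0.938 to 1.55). An exon of Psmb8 overlaps Gm20496 on the opposite strand.

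Psmb8 was seen in most wells of the high populations and in few erythroblasts. A Psmb8 UMI was found in 20 of 44 B cells (45.5%), 34 of 43 T cells (79.1%), 39 of 96 granulocytes (40.6%), 10 of 96 erythroblasts (10.4%) and 84 of 95 progenitor/stem cells (88.4%). Wells were then thinned to 2000 UMIs, which left out 11 B cells, 1 T cell, 10 granulocytes and 1 erythroblast. The shares became 24.2%, 57.1%, 18.6%, 3.16% and 48.4%, and the erythroblasts remained lowest. No erythroblast held more than 1 Psmb8 UMI, whereas the highest progenitor/stem cell held 11. The erythroblast median was 6113.5 UMIs per well, above the medians of 3028.5 in the B cells, 4347 in the T cells and 3880 in the granulocytes, and below 7959 in the progenitor/stem cells.

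Psmb9 (chr17:34181987-34187764, minus strand), the counterpart of the caspase-like subunit Psmb6, was at 66.3 CPM in the B cells, 220 CPM in the T cells, 74.3 CPM in the granulocytes, 18.0 CPM in the erythroblasts and 153 CPM in the progenitor/stem cells. The T cells and progenitor/stem cells could not be separated (1.43-fold, 0.993 to 2.03), nor could the granulocytes and B cells (1.12-fold, 0.519 to 2.69). The progenitor/stem cells were 2.06-fold above the granulocytes (1.38 to 3.18), and the B cells 3.68-fold above the erythroblasts (1.37 to 9.52). Its share with Psmb6 was 31.0% in the B cells (15.3% to 50.8%), lower than the 72.1% of the T cells (59.2% to 82.9%). An exon of Psmb9 overlaps Tap1 on the opposite strand, and the use of strand in counting is not given in the sources used here. In all, 9 members have such an overlap, Psmb8, Psmb7 (with Nek6) and Psme1 (with Emc9) among them. On the same strand Psme2b overlaps 9930111J21Rik1 and Psmb5 overlaps Mir686.

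Psmb10 (chr8:105935735-105938444, minus strand), the counterpart of the trypsin-like subunit Psmb7, followed another order, with the B cells at the top. It was at 133 CPM in the B cells, 99.8 CPM in the T cells, 66.9 CPM in the granulocytes, 3.00 CPM in the erythroblasts and 108 CPM in the progenitor/stem cells. The B cells were not separated from the progenitor/stem cells (1.23-fold, 0.697 to 2.06) or the T cells (1.33-fold, 0.662 to 2.64). The erythroblasts held 2 UMIs in 2 of 96 wells, and the granulocytes were 22.3-fold above them (5.61 to 194). Without the same T cell well, which held 5 of the 20 Psmb10 UMIs, the T cells were at 79.1 CPM.

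Among the 3 immunoproteasome subunits the mix also differed between the lymphocytes. Psmb10 made up 34.0% of their summed UMIs in the B cells (21.5% to 48.3%), 12.5% in the T cells (7.81% to 18.6%), 21.3% in the granulocytes (14.5% to 29.4%) and 17.3% in the progenitor/stem cells (14.2% to 20.8%). In the erythroblasts it was 8.33%, with only 24 UMIs and an interval of 1.03% to 27.0%. The B cell interval lay above those of the T cells and the progenitor/stem cells.

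The constitutive catalytic subunits varied less. Psmb5 (chr14:54614119-54618022, minus strand) was at 36.8 CPM in the B cells, 34.9 CPM in the T cells, 12.4 CPM in the granulocytes, 25.5 CPM in the erythroblasts and 44.3 CPM in the progenitor/stem cells. It rested on 71 UMIs, and the progenitor/stem cells exceeded only the granulocytes beyond counting error (3.58-fold, 1.40 to 11.7). The last 500 bases of its transcript match the annotated copies Gm3375 and Psmb5-ps, which held 30 UMIs, and reads of the 3 could be split among them. With the UMIs of such copies added to Psmb5 and Psmb6, the immunoproteasome share was 56.4%, 75.1%, 64.8%, 11.4% and 68.4% in the order B cells, T cells, granulocytes, erythroblasts and progenitor/stem cells.

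Psmb6 (chr11:70525367-70527858, plus strand) was at 147 CPM, 84.8 CPM, 59.5 CPM, 91.5 CPM and 120 CPM in that order. The B cells were 2.48-fold above the granulocytes (1.30 to 4.68), and no neighbours in its order were separated. Psmb7 (chr2:38588036-38644087, minus strand) was at 95.7 CPM, 110 CPM, 89.2 CPM, 156 CPM and 102 CPM, and was the constitutive subunit that was highest in the erythroblasts. They were 1.53-fold above the progenitor/stem cells (1.14 to 2.07) and 1.75-fold above the granulocytes (1.19 to 2.63), and were not separated from the T cells (1.42-fold, 0.891 to 2.36). Psmb7 made up 57.1% of the 182 constitutive catalytic UMIs in the erythroblasts (49.6% to 64.4%) and 38.3% of the 222 in the progenitor/stem cells (31.9% to 45.0%).

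**Figure D2:**
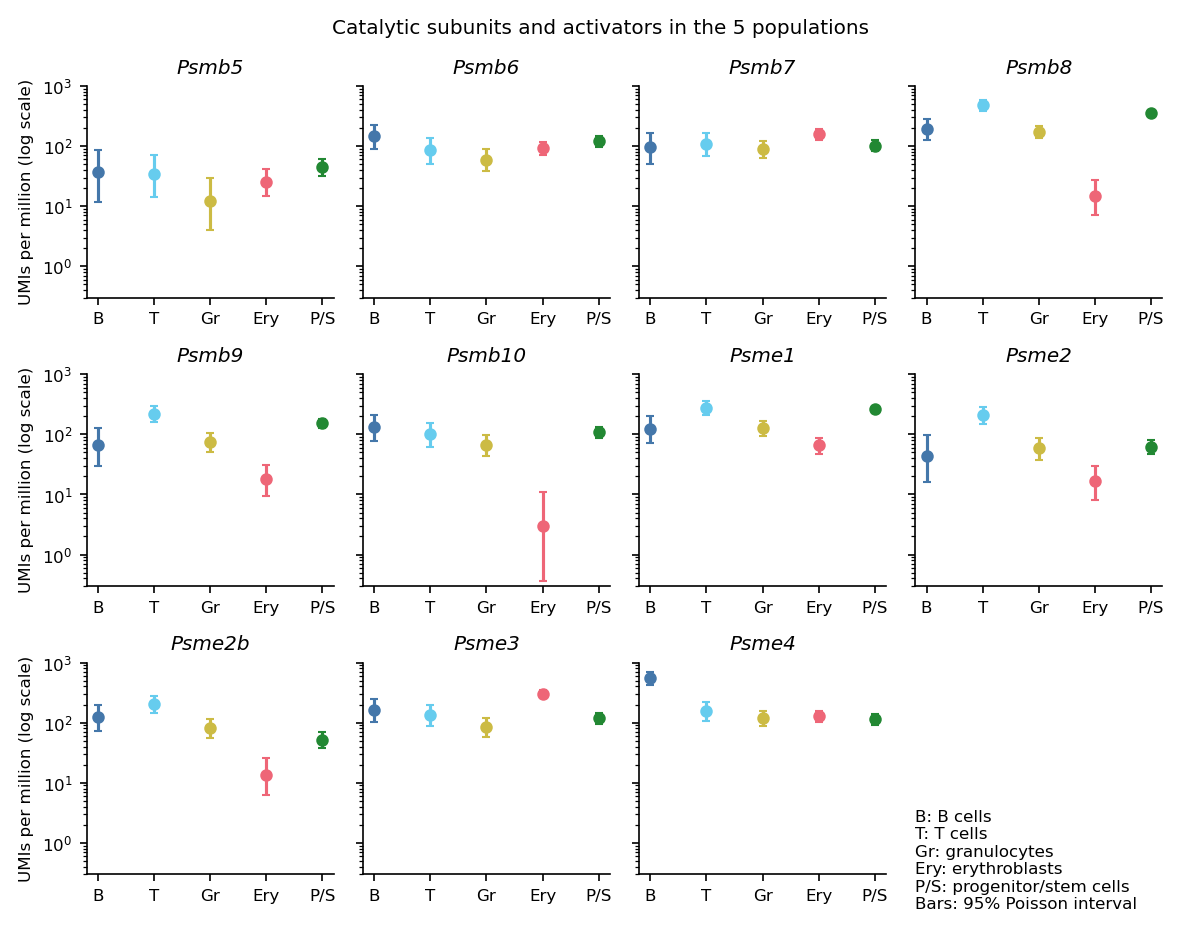
Each panel gives the level of 1 gene in CPM (log axis) in the 5 populations, with points for the summed wells and bars for 95% exact Poisson intervals. Psmb8 spans 15.0 to 479 CPM with the erythroblasts lowest, Psme3 is highest in the erythroblasts at 298 CPM and Psme4 in the B cells at 545 CPM.

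The 11S activator followed the immunoproteasome at its low end. Psme1 (chr14:55578123-55581529, plus strand) was at 125 CPM in the B cells, 279 CPM in the T cells, 126 CPM in the granulocytes, 66.0 CPM in the erythroblasts and 262 CPM in the progenitor/stem cells. The T cells and progenitor/stem cells could not be separated (1.07-fold, 0.780 to 1.43), and the latter were 2.08-fold above the granulocytes (1.52 to 2.87). The granulocytes were 1.92-fold above the erythroblasts (1.3 to 2.93). An annotated copy of Psme1 held 83 UMIs beside its own 387.

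Psme2 (chr14:55587441-55591113) and Psme2b (chr11:48945354-48946190), both on the minus strand, are 99% identical over the last 500 bases of the Psme2 transcript, so their counts cannot be told apart and are given as a sum. The sum was 169 CPM in the B cells, 414 CPM in the T cells, 141 CPM in the granulocytes, 30.0 CPM in the erythroblasts and 114 CPM in the progenitor/stem cells. The T cells were 2.45-fold above the B cells (1.53 to 4.07) and 3.64-fold above the progenitor/stem cells (2.68 to 4.94), while the B cells, granulocytes and progenitor/stem cells were not separated as neighbours. The progenitor/stem cells thus had Psme1 at the T cell level and Psme2 with Psme2b well under it. Psme1 held 69.7% of the 314 UMIs of the 3 genes there (64.3% to 74.8%) and 40.3% of 139 in the T cells (32.1% to 48.9%).

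Psme3 (chr11:101316213-101323537, plus strand), the nuclear activator, was highest in the erythroblasts, where the 11S genes were lowest. It was at 162 CPM in the B cells, 135 CPM in the T cells, 84.3 CPM in the granulocytes, 298 CPM in the erythroblasts and 119 CPM in the progenitor/stem cells. The erythroblasts were 1.84-fold above the B cells (1.18 to 3.01), 2.22-fold above the T cells (1.48 to 3.45) and 2.52-fold above the progenitor/stem cells (1.97 to 3.24). A Psme3 UMI was present in 81 of 96 erythroblasts (84.4%), and in 45 of 95 (47.4%) after thinning. The thinned shares of the other populations lay between 15.1% in the granulocytes and 33.3% in the B cells.

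Psme4 (chr11:30771726-30880361, plus strand), a large activator known for its role in sperm and in DNA repair, was the second most abundant member by mean level (212 CPM), through the B cells. It was at 545 CPM in the B cells, 155 CPM in the T cells, 119 CPM in the granulocytes, 129 CPM in the erythroblasts and 114 CPM in the progenitor/stem cells. The B cells were 3.52-fold above the T cells (2.29 to 5.54) and 4.79-fold above the progenitor/stem cells (3.48 to 6.56), and none of the other neighbours was separated. The 74 UMIs came from 30 of the 44 B cell wells, with at most 12 in a well. Without that well the level was 486 CPM, 3.14-fold above the T cells (2.01 to 5.01). After thinning, 23 of 33 B cells (69.7%) held a Psme4 UMI and between 12.8% and 26.2% of the wells of the others.

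The 20S core without its catalytic subunits, which was 6 alpha and 4 beta genes here, differed less in sum than the immunoproteasome subunits. Its summed level was 1031 CPM in the B cells, 1158 CPM in the T cells, 910 CPM in the granulocytes, 1233 CPM in the erythroblasts and 1299 CPM in the progenitor/stem cells. The highest was 1.43-fold above the lowest (1.27 to 1.61). With TMM factors and scran size factors the erythroblasts were highest (1755 and 1417) and the B cells lowest (869 and 705), at ratios of 2.02 and 2.01. Psmb1, a structural beta subunit and the member with the third highest mean level (195 CPM), ranged from 141 CPM in the granulocytes to 231 CPM in the erythroblasts.

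On the CPM scale most single genes of the core differed more than its sum. This held both in the alpha ring, which forms its gate, and among the beta subunits. The ratio of a sum cannot exceed the largest ratio among its genes, and small counts widen the ratios of single genes. Psma5, for example, held 7 UMIs in the B cells and 15 in the granulocytes. From the lowest to the highest CPM the ratio was 3.40 in Psma4, 2.90 in Psma5, 2.58 in Psmb2, 2.47 in Psma7, 2.38 in Psma3 and 2.09 in Psmb4, and at most 1.64 in the others. With TMM and scran size factors Psma4 spanned 1.87 and 1.64, less than the sum of the core (2.02 and 2.01). Psmb2 spanned 1.92 and 2.02, near the sum, and Psma5 2.95 and 3.12. The end of the Psma5 transcript matches 2 annotated copies that held 146 UMIs beside its own 189. Reads could be split among them, and copies of Psmb3 held 150 UMIs beside its own 196. Psma4 was at 58.9 CPM in the B cells, 79.8 CPM in the T cells, 57.0 CPM in the granulocytes, 34.5 CPM in the erythroblasts and 117 CPM in the progenitor/stem cells. The progenitor/stem cells were 3.40-fold above the erythroblasts (2.14 to 5.62), and Psma4 was the only 1 of the 27 compared subunits common to all 26S proteasomes that was past 2-fold lower in the erythroblasts, and with TMM or scran size factors none was. An exon of Psma4 overlaps AY074887 on the opposite strand. Psma7 was at 73.6 CPM in the B cells, 84.8 CPM in the T cells, 166 CPM in the granulocytes, 124 CPM in the erythroblasts and 182 CPM in the progenitor/stem cells. Its log2 ratio in the granulocytes was 0.51, at 1.96-fold above the T cells (1.14 to 3.56). Psma1, at 134 CPM in the granulocytes against 125 CPM in both lymphocyte populations, and Psmd2, a 19S base subunit at 96.7 CPM, were the next highest there by that ratio (-0.16 and 0.03). Annotated copies of Psmd2 held 55 UMIs beside its own 223.

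The 19S particle was highest in the erythroblasts. Its 15 genes, 5 ATPases and 10 others, summed to 1105 CPM in the B cells, 1163 CPM in the T cells, 734 CPM in the granulocytes, 1525 CPM in the erythroblasts and 1267 CPM in the progenitor/stem cells. The erythroblasts were 1.2-fold above the progenitor/stem cells (1.10 to 1.31), 1.31-fold above the T cells (1.14 to 1.52), 1.38-fold above the B cells (1.16 to 1.65) and 2.08-fold above the granulocytes (1.83 to 2.37). With TMM factors the erythroblasts were at 2171 and the others between 926 (T cells) and 993 (progenitor/stem cells), and with scran size factors at 1777 against 722 (granulocytes) to 778 (T cells), so the granulocytes were not lowest with TMM factors. On the CPM scale 9 of the 15 genes had their highest level in the erythroblasts and 10 of 15 their lowest in the granulocytes. How many of all genes did so was not counted. By log2 ratio to the mean of the other populations, the 14 compared 19S genes had a median of -0.85 in the granulocytes. That of all genes was -0.82, so the 19S genes were about as low there as other genes. In the erythroblasts the medians were 0.54 and -0.70, and all 14 lay above the latter. Psmd12, a subunit of the lid, was at 22.1 CPM, 29.9 CPM, 24.8 CPM, 69.0 CPM and 52.7 CPM in the order B cells, T cells, granulocytes, erythroblasts and progenitor/stem cells. Psmd11, another lid subunit, was at 110 CPM, 99.8 CPM, 57.0 CPM, 168 CPM and 111 CPM. The erythroblasts were 1.51-fold above the progenitor/stem cells in Psmd11 (1.14 to 2.01), and in Psmd12 these populations were not separated (1.31-fold, 0.847 to 2.03).

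The remaining 19S genes named by rank lay at the low end. Psmc2, an ATPase of the base, was at 51.5 CPM in the B cells from 7 UMIs, and the erythroblasts, at 157 CPM, were 3.06-fold above them (1.43 to 7.79). Psmc5, another ATPase, was at 32.2 CPM in the granulocytes and 102 CPM in the erythroblasts. Psmd7, a lid subunit, was at 37.2 CPM in the granulocytes and 54.9 CPM in the T cells, and Psmc4, an ATPase, was at 44.9 CPM in the T cells. Both were highest in the erythroblasts, at 102 CPM and 94.5 CPM.

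To set the members beside all genes, the log2 ratio of each population to the mean of the other 4 was computed, with sums under 3 UMIs set to 3 UMIs. In the erythroblasts the median of the 36 members was 0.15 and that of all 6317 genes -0.70, and 28 members lay above the latter. Of the 27 subunits common to all 26S proteasomes, 26 lay above it, all but Psma4, with a median of 0.36. The difference between the medians was 0.85. Haemoglobin made up 23.5% of the erythroblast UMIs, and what lowers the median of all genes was not tested. Without the most abundant genes in the denominator, haemoglobin among them, that median was -0.46 and the difference 0.83. The difference was 0.80 with TMM factors and 0.79 with scran size factors. In the other populations the difference was 0.09 in the B cells, -0.01 in the T cells, 0.14 in granulocytes and -0.12 in progenitor/stem cells.

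Counts of members past 2-fold are given beside the percentage of all genes past the same fold. In the erythroblasts 2 of 36 members, Psme3 (log2 ratio 1.26) and Psmd12 (1.09), were 2-fold higher, and 13.3% of all genes were. A total of 7 members were 2-fold lower, 19.4% of the 36 against 43.4% of all genes. These were Psmb10 (-4.50), Psmb8 (-4.33), Psme2b (-3.10), Psmb9 (-2.83), Psme2 (-2.51), Psme1 (-1.59) and Psma4 (-1.18). The 6 lowest were the 3 immunoproteasome and the 3 11S genes. With TMM factors 15 members were higher and 5 lower (23.3% and 31.8% of all genes), and with scran size factors 15 were higher and 6 lower (25.2% and 31.4%).

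In the T cells 4 members were 2-fold higher, 11.1% of the 36 against 11.6% of all genes, so the number is that of the background. These were Psme2 (2.20), Psme2b (1.59), Psmb9 (1.49) and Psmb8 (1.37), and with Psme2 and Psme2b as 1 gene its ratio was 1.87. No member was 2-fold lower, against 17.9% of all genes, and the lowest were Psma7 (-0.69), Psmc4 (-0.64) and Psmd7 (-0.59). In the B cells Psme4 (2.08) was the 1 member 2-fold higher, against 7.28% of all genes, and Psmc2 (-1.21) the 1 member 2-fold lower, against 15.1%. The next highest were Psmb10 (0.93) and Psmb6 (0.73), and the next lowest Psmd12 (-1.00) and Psme2 (-0.98). Psme2 held 6 UMIs there and Psme2b, from which it cannot be told apart, 17. Their sum of 169 CPM was exceeded only by that of the T cells, so the low rank of Psme2 alone has no meaning.

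In the granulocytes no member was 2-fold higher, against 10.8% of all genes, and 9 of 36 (25%) were 2-fold lower, against 43.7%. The lowest were Psmb5 (-1.51), Psmc5 (-1.28) and Psmd7 (-1.22), and the others were Psma3, Psma5, Psmc1, Psmd3, Psmd11 and Psme3. With TMM factors 0 members were lower and with scran size factors 3 (27.8% and 37.1% of all genes). In the progenitor/stem cells Psma4 (1.03) was 2-fold higher, against 19.1% of all genes, followed by Psme1 (0.81) and Psmb8 (0.75). Psme4 (-1.06) and Psme2b (-1.04) were 2-fold lower, against 13.2%, followed by Psme3 (-0.52). With Psme2 and Psme2b as 1 gene, Psme4 was the only member 2-fold lower there.

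**Figure D3:**
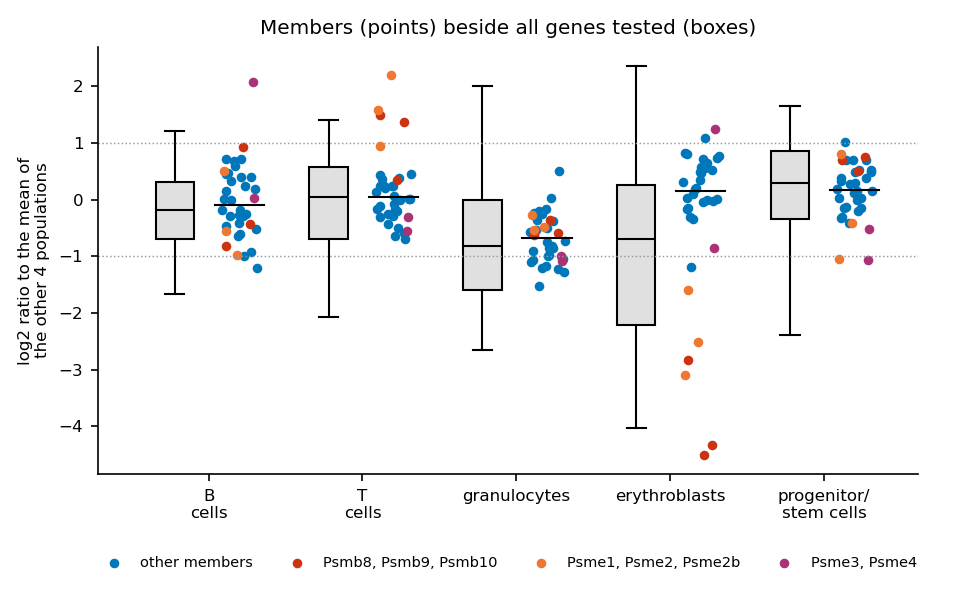
The vertical axis gives the log2 ratio of each population to the mean of the other 4. Grey boxes show all 6317 genes (quartiles, with whiskers from the 5th to the 95th percentile), points show the 36 members, black bars the medians and dotted lines 2-fold. In the erythroblasts the members have a median of 0.15 over a median of -0.70 for all genes, with the immunoproteasome and 11S genes between -1.59 and -4.50.

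The total of all 41 members per UMI ranged over less than their mix. It was 3858 CPM in the B cells, 4386 CPM in the T cells, 2627 CPM in the granulocytes, 3669 CPM in the erythroblasts and 4131 CPM in the progenitor/stem cells. The T cells and progenitor/stem cells were not separated (1.06-fold, 0.985 to 1.14), and the granulocytes were lowest, with the erythroblasts 1.40-fold above them (1.30 to 1.5). This order turned with the scaling. With TMM factors the granulocytes, at 3510, were above the B cells, T cells and progenitor/stem cells (3252, 3494 and 3236), and with scran size factors, at 2505, above the progenitor/stem cells (2371), while the erythroblasts were highest in both (5222 and 4484). S100a8 and S100a9 took 9.73% of the granulocyte UMIs. By well, the median share of member UMIs was 0.385% in the B cells, 0.450% in the T cells, 0.210% in the granulocytes, 0.336% in the erythroblasts and 0.409% in the progenitor/stem cells. The middle wells of the granulocytes (quartiles of 0.162% and 0.282%) lay below those of the progenitor/stem cells (0.340% and 0.489%), while the full ranges overlapped, at 0% to 0.707% and 0.204% to 0.658%.

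**Figure D4:**
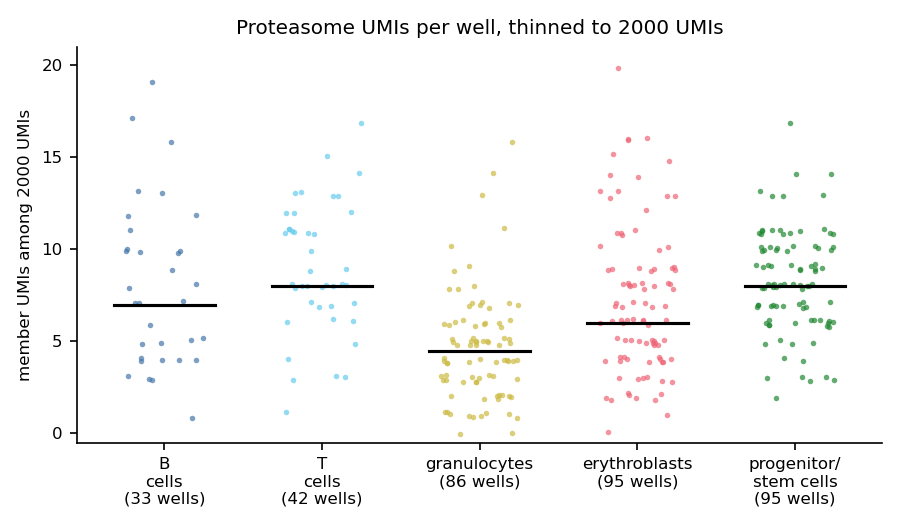
Each point is a well thinned to 2000 UMIs, with the number of member UMIs on the vertical axis (points are shifted slightly at random to show ties) and black bars for medians. The medians were 7, 8, 4.5, 6 and 8 from left to right, and the ranges of all 5 populations overlap.

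Within the populations, wells were split at the median of the fluorescence or scatter recorded at the sort. In the 48 erythroblasts with more CD44, which is lost as erythroblasts mature, all members together were 1.43-fold above the 48 with less (1.31 to 1.56) while the median gene was 1.2-fold higher. Psmb5, Psmb6 and Psmb7 were 2.16-fold higher there (1.52 to 3.12) and the 11S genes 2.80-fold (1.48 to 5.77), whereas Psme3 was lower (0.694-fold, 0.521 to 0.926). In the 48 granulocytes with more Gr1, which rises as granulocytes mature, all members were 0.648-fold the level of the other 48 (0.567 to 0.739, median gene 1.04-fold), and Psmb5, Psmb6 and Psmb7 were 0.363-fold (0.181 to 0.676). The 3 immunoproteasome genes, at 0.693-fold, had an interval that included 1 (0.465 to 1.02).

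In the 21 T cells with more CD3 the immunoproteasome genes were 1.59-fold above the other 22 (1.15 to 2.22, median gene 1.08-fold). The well with 27 immunoproteasome UMIs was among the 21, and without it the ratio was 1.28 with an interval that included 1 (0.900 to 1.83). Psme4 was 0.389-fold there (0.150 to 0.901), and 0.425-fold without another well that held 3 of its UMIs (0.162 to 1.01). In the 47 progenitor/stem cells with more c-Kit the 11S genes were 1.41-fold higher (1.12 to 1.78) and all members 0.997-fold (0.932 to 1.07). By FSC-A, all members were 1.07-fold higher in the larger progenitor/stem cells (1.00 to 1.15), an interval that included 1 without any 1 of 29 wells, and 1.03-fold in the larger B cells (0.867 to 1.23).

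**Figure D5:**
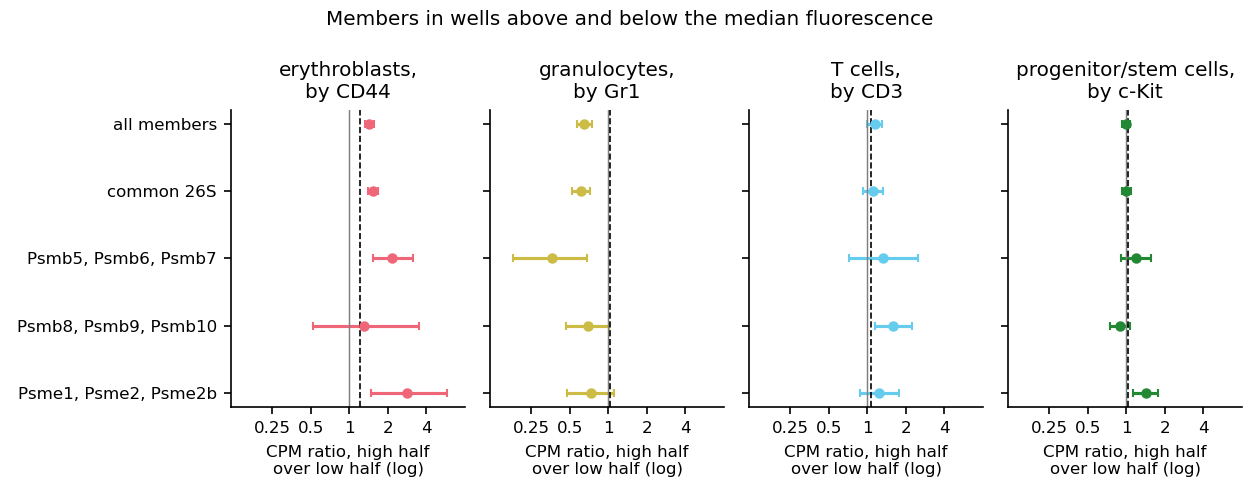
The horizontal axis (log scale) gives the ratio of CPM in the wells above the median fluorescence to those below it, for sets of members in 4 populations, with 95% exact conditional binomial intervals. The solid line marks a ratio of 1 and the dashed line the median gene. All members lie at 1.43 in the erythroblasts by CD44 and at 0.648 in the granulocytes by Gr1.

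Members under 50 UMIs are given as counts. Psma8, an alpha subunit of the testis, had 7 UMIs, all in the progenitor/stem cells, and Psmb11, the catalytic subunit of the thymic cortical epithelium, had 1 UMI, in the T cells. Psmd13, a lid subunit, had 14 UMIs, and an exon of Psmd13 overlaps Sirt3 on the opposite strand. Psmd5, a chaperone of base assembly, had 46 UMIs, 22 of them from progenitor/stem cells and 14 from erythroblasts. Psmc3ip matches the symbol rule but is a factor of meiotic recombination and no proteasome subunit, and it had 34 UMIs, of which 19 were in the erythroblasts.

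Genes that work with the proteasome were taken from lists by function. Of 10 genes that supply peptides to MHC class I molecules, 9 passed the minimum and their median log2 ratio was -2.85 in the erythroblasts, beside -0.70 for all genes, and 1.01 in the T cells, beside 0.05. In the erythroblasts 8 of 9 (88.9%) were 2-fold lower, against 43.4% of all genes, and in the T cells 5 (55.6%) were 2-fold higher, against 11.6%. Tap1, which carries peptides into the endoplasmic reticulum, was at 81.0 CPM, 284 CPM, 76.8 CPM, 31.5 CPM and 187 CPM in the order B cells, T cells, granulocytes, erythroblasts and progenitor/stem cells. The order of the populations was that of Psmb9, except that the B cells and granulocytes exchanged places. Irf1, an interferon regulatory factor, and Nlrc5, a transactivator of MHC class I genes, were both at 7.50 CPM in the erythroblasts. In the T cells they were at 215 CPM and 190 CPM.

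Of 8 ubiquitin shuttles and segregase genes, 6 passed. Rad23b, which brings ubiquitinated proteins to the proteasome, was at 45.0 CPM in the erythroblasts and 192 CPM in the progenitor/stem cells. Ubqln2 (1.26), Ubqln4 (1.00) and Rad23b were 2-fold higher in the progenitor/stem cells, 50% of the 6 against 19.1% of all genes. Of 6 genes associated with the 26S proteasome, 5 passed. Usp14, a deubiquitinase of the base, was at 153 CPM in the erythroblasts and 24.8 CPM in the granulocytes, and Sem1, a small lid component, was highest in the granulocytes at 471 CPM. Ecpas, a scaffold that binds the 26S proteasome, was at 346 CPM in the B cells, 274 CPM in the progenitor/stem cells and 88.5 CPM in the erythroblasts, and the ubiquitin ligase Ube3c was highest in the T cells at 110 CPM.

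Of 6 genes of core and base assembly, 4 passed and 3 of them (75%), Psmg2, Psmg3 and Psmg4, were 2-fold lower in the granulocytes, against 43.7% of all genes. Psmg4 was 2-fold higher in the progenitor/stem cells (1.23) and Psmg3 in the B cells (1.41, from 8 of its 62 UMIs). Of 6 genes of ubiquitin and its activation, 4 passed, and the activating enzymes Uba1 (-1.28) and Uba6 (-2.49) were 2-fold lower in the erythroblasts, 50% of the 4 against 43.4% of all genes, a share near the background. The value of Uba6 rests on 2 of its 53 UMIs, set to 3. Of 4 genes that regulate proteasome transcription, 3 passed. Nfe2l1, which encodes Nrf1, was 2-fold lower in the B cells (-1.18), against 15.1% of all genes, and no gene of that list was past 2-fold in the other populations. The value of Nfe2l1 in the B cells rests on 3 of its 108 UMIs, with an interval of 4.56 to 64.6 CPM.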

How the data were processed

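The authors deposited raw UMI counts for each gene in each well. Their *scPipe* pipeline aligns reads, assigns them to exons, splits them by the designed well barcodes and collapses UMIs. The sources used here do not name the aligner version, genome build, gene models or strand setting of this table, and the labels contradict each other on the layout of read 1. Wells were matched to samples by name, and 9 columns without a matching sample were left aside. Symbols and gene coordinates came from GENCODE M21 (GRCm38), and the counts may rest on another build. Spike-in rows (6.76% of all UMIs) were left out.

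UMIs were summed per population and divided by all mouse gene UMIs of that population (CPM). With 1 sample a population, neither tests nor standard errors were computed. Sums carry exact Poisson intervals, shares exact binomial and ratios exact conditional binomial intervals, all at 95% and for counting error only. UMI totals per population ranged from 135808 to 834812, so at the same level in CPM the values of the B cells have the widest intervals. Log2 ratios compare a population with the mean of the other 4, with a floor of 3 UMIs and a minimum of 50 UMIs over all wells. Symbols named were Psmb5 to Psmb10, Psme1 to Psme4, the 3 highest and 3 lowest members of each population, the 5 most abundant, members under 50 UMIs and, of the other lists, genes past 2-fold, although not each of these is described. Members and lists were chosen with earlier results of these data known. The code was tested on simulated sums. Transcript ends were compared by BLAST 2.17.0 (at least 90% identity over 250 of the last 500 bases). Python 3.11.15, scipy 1.17.1, scran 1.30.0 (size factors) and edgeR 4.0.16 (TMM factors only) were used, the latter pair in alternatives. Other alternatives changed the wells, the weighting, the fold, the minimum, the reference and the genes counted.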

Additional observations from a re-analysis of the deposited data

How the results depend on the processing

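No paired analysis was possible because each population is 1 sample and the replicate numbers only name wells. No alternative reversed the sign of a member past 2-fold, and of 375 log2 ratios of such members under the alternatives, 336 stayed past 2-fold. Over all alternatives that kept the 3 pairs together, the immunoproteasome share lay within 52.3% and 59.3% for B cells, 74.7% and 77.7% for T cells, 58.8% and 69.3% for granulocytes, 11.4% and 16.2% for erythroblasts, and 68.4% and 72.1% for progenitor/stem cells. The value of 58.8% came from thinning to 2000 UMIs per well. Single pairs gave other levels. Psmb8 against Psmb5 gave 83.9% in the B cells, 93.2% in the T cells, 93.3% in the granulocytes, 37.0% in the erythroblasts and 89.1% in the progenitor/stem cells. Psmb9 against Psmb6 gave 31.0% in the B cells, 55.6% in granulocytes and 56.1% in progenitor/stem cells. Psmb10 against Psmb7 gave 47.6% in the T cells, 42.9% in the granulocytes, 1.89% in the erythroblasts and 51.4% in the progenitor/stem cells.

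The scaling moved the levels. The summed level of members with TMM factors was 3252 in the B cells, 3494 in the T cells, 3510 in the granulocytes, 5222 in the erythroblasts and 3236 in the progenitor/stem cells. With scran size factors it was 2705 in the B cells, 2882 in the T cells, 2505 in the granulocytes, 4484 in the erythroblasts and 2371 in the progenitor/stem cells. Without the most abundant genes in the denominator it was 5542, 5628, 3741, 5743 and 5027 in the order of the TMM values. As a mean over wells it was 3446 in the erythroblasts and 2365 in the granulocytes, and after thinning 2349 in the granulocytes. The median log2 ratio of members was -0.47, -0.38, -0.25, 0.77 and -0.28 with TMM factors and -0.40, -0.15, -0.39, 0.78 and -0.37 with scran size factors, in the order B cells, T cells, granulocytes, erythroblasts and progenitor/stem cells, so the sign changed in the T cells and progenitor/stem cells. TMM factors shifted the median of all genes by -0.22, -0.38, 0.52, 0.67 and -0.43, and scran size factors by -0.08, -0.36, 0.34, 0.68 and -0.60. Without the most abundant genes the median of members was 0.37 in the erythroblasts and -0.057 in the progenitor/stem cells. As a mean over wells it was -0.85 in the granulocytes and 0.22 in the T cells, and after thinning -0.84 in granulocytes and 0.35 in progenitor/stem cells.

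The erythroblast difference to all genes stayed positive. It lay between 0.63 (a minimum of 100 UMIs) and 0.90 (Psme2 and Psme2b as 1 gene), and was 1.52 with no minimum. In the other populations it changed sign between settings. With no minimum it was -1.13 in the B cells, -0.52 in the T cells, -0.15 in granulocytes and 1.15 in progenitor/stem cells. That setting includes genes under 3 UMIs in every population, whose ratios the floor sets by the library totals alone. The median of all genes was the value of such a gene in the erythroblasts (-1.42) and granulocytes (-0.60). The differences with no minimum therefore do not describe the members. With the median of the other populations as reference it was -0.13 in the B cells and -0.0044 in the granulocytes, with scran size factors -0.13 in the B cells and 0.17 in the T cells, and after thinning -0.093 in granulocytes and 0.23 in progenitor/stem cells.

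Counts of members past the fold are given with the share of all genes past it under the same setting. They are out of 36 members unless another number is given. At 1.5-fold, 6 members were higher (15.8% of all genes) and 7 lower (29.0%) in the B cells, 3 lower in the T cells (28.5%), 20 lower in the granulocytes (57.3%), 8 higher in the erythroblasts (18.6%) and 7 higher in the progenitor/stem cells (36.5%). At 3-fold, 2 were higher in the T cells (3.97%), 0 were lower in the B cells (5.71%), granulocytes (24.9%) and progenitor/stem cells (8.69%), and 0 were higher in the erythroblasts (8.64%) and progenitor/stem cells (5.83%). With TMM factors, 15 were higher in the erythroblasts (23.3%) and 0 in the progenitor/stem cells (8.71%), and 4 were lower in the B cells (23.1%), 3 in the T cells (26.8%) and 0 in the granulocytes (27.8%). With scran size factors, 2 were higher in the B cells (6.46%), 15 in the erythroblasts (25.2%) and 0 in the progenitor/stem cells (7.69%), and 4 were lower in the B cells (21.7%), 4 in the T cells (27.0%), 3 in granulocytes (37.1%) and 4 in progenitor/stem cells (26.5%). Without the most abundant genes, 2 were higher in the B cells (8.66%), 6 in the erythroblasts (15.9%) and 0 in the progenitor/stem cells (12.5%). As a mean over wells, 3 were higher (8.49%) and 0 lower (15.9%) in the B cells, 16 lower in the granulocytes (48.4%) and 1 lower in the progenitor/stem cells (13.9%). With the median as reference, 3 were higher (24.1%) and 1 lower (7.30%) in the progenitor/stem cells. With no minimum, 4 of 41 members were higher in the B cells (54.6%). There the floor alone puts genes under 3 UMIs in every population past 2-fold (log2 ratio 1.53). After thinning, 25 members passed the minimum. Of these, 0 were higher (16.1%) and 0 lower (19.3%) in the progenitor/stem cells. The number lower was 2 in the B cells (21.3%), 2 in the T cells (22.4%) and 4 in the erythroblasts (40.7%). Using only wells nearest to their own population, or leaving out the B cell wells A8 and B2, whose recorded fluorescence stood apart from that of the other B cells, gave 2 higher in the B cells (7.57% and 7.61%). Leaving out the T cell well with the most immunoproteasome UMIs, chosen after seeing the data, gave 2 higher in the B cells (7.16%). It gave 0 higher (18.9%) and 1 lower (13.2%) in the progenitor/stem cells. Counting Psme2 and Psme2b as 1 gene, also chosen then, gave 1 of 35 lower in the progenitor/stem cells (13.2%). The scaling of single groups of subunits and the leaving out of each well from the splits by fluorescence were also chosen after seeing the data. Beyond the settings named, the cause of a move was not tested. Depth limits the B cells most, which held the fewest UMIs.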
